A study of Mus musculus with 12 samples.

Results

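The genes described here are the WNT ligands, their receptors, the proteins that restrain them and the intracellular and nuclear parts of the pathway. They are 63 of the 47480 gene symbols in the deposited count table, taken by symbol and function and not by any measured value. Earlier results of these data were known when the set was chosen. The set holds 19 Wnt genes, 10 Frizzled genes and 34 further genes. Of the 63, 46 were expressed, meaning a CPM (the share of a library's counts, scaled by library size) above 1 in at least 6 of the 12 libraries, and 51 passed the filter on low counts that decided which genes were tested.

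WNT proteins are secreted, lipid-modified ligands that bind Frizzled receptors on nearby cells. With the co-receptors LRP5 or LRP6 they stop a cytoplasmic complex of AXIN, APC and kinases from destroying β-catenin, which then acts with TCF and LEF factors on target genes. Other WNT signals run through ROR or RYK receptors without β-catenin. SFRP and DKK proteins block the signal outside the cell, Naked proteins block it inside, and R-spondins strengthen it by removing the ubiquitin ligases that clear Frizzled from the surface. In peripheral nerve the pathway is known for roles in Schwann cell development and myelination.

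RNA was sequenced from mouse trigeminal nerve, which carries sensation from the face. All mice were Nf1 flox/flox, so the loxP-flanked Nf1 alleles were shared by controls and tumours. The 6 samples of normal nerve were PostnCre-, and the 6 samples of plexiform neurofibroma, a benign tumour of the nerve sheath that forms when Schwann lineage cells lose the RAS inhibitor neurofibromin, were PostnCre+. The Cre takes its name from Postn, the gene of the matrix protein periostin, and the labels do not say in which cells it acted. Cre genotype and tumour state coincide and cannot be told apart, and no treatment, time, age or sex is given in the sources used here.

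Total counts ran from 14160025 to 19989351 per library. Nf1 (chromosome 11) measured 85.6, 141 and 173 CPM (lowest, median and highest) in normal nerve and 69.6, 86.6 and 93.1 CPM in plexiform neurofibroma, which overlapped (-0.65 on the log2 scale, SE 0.16, edgeR adjusted p = 0.0179). Schwann cell markers were abundant in every library, with 4 of 8 called higher in the tumours, where 10.0% of all genes tested were called higher. Sensory neuron markers were abundant too, among them Isl1 (72.8 to 145 CPM), a transcription factor of neuronal cell bodies. Of these 11 markers 0 were called higher and 1 lower. Summed fibroblast markers ran from 184 to 1262 CPM in normal nerve and from 1467 to 3446 CPM in the tumours, without overlap. Normal nerve replicate 6 stood apart, with 1765 CPM of summed markers of central nervous system glia against 88.6 to 858 CPM in the other libraries, and it held the highest value for 18 of the 51 tested WNT genes (35.3%, against 18.8% of all tested genes). Normal nerve replicate 2, which had the lowest fibroblast marker sum, held the lowest value for 22 of the 51. The matching share over all tested genes was not computed. Skeletal muscle markers were high in normal nerve replicate 3 and plexiform neurofibroma replicate 1, at 417 and 1639 CPM.

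In the tumours the intracellular WNT inhibitor Nkd2 rose 4.74-fold, the R-spondin gene Rspo1 and the ligand Wnt6 each rose 1.77-fold, and the antagonist Frzb rose 1.83-fold. The ligand Wnt5a fell to 0.662 of the normal level. Wnt3, a low ligand that met the expression rule through the normal libraries, was called lower, at 0.347 of the normal level. Smaller rises were seen for the receptors Fzd1 and Ryk, the R-spondin receptor Lgr5, the antagonist Sfrp5 and the inhibitor Nkd1. In all, 11 of the 51 tested genes were called at an adjusted p under 0.05 (edgeR quasi-likelihood test, Benjamini-Hochberg over 17236 genes), 9 higher and 2 lower. Over all genes tested the share called was 18.7%, with 10.0% higher and 8.63% lower. The 21.6% called among the WNT genes is close to that background, so the count is no result about the pathway as a whole. The median log2 fold change of the 51 was 0.012, against -0.021 for all genes tested. In bulk tissue, fewer cells of a type and less RNA per cell cannot be told apart.

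**Figure D1:**
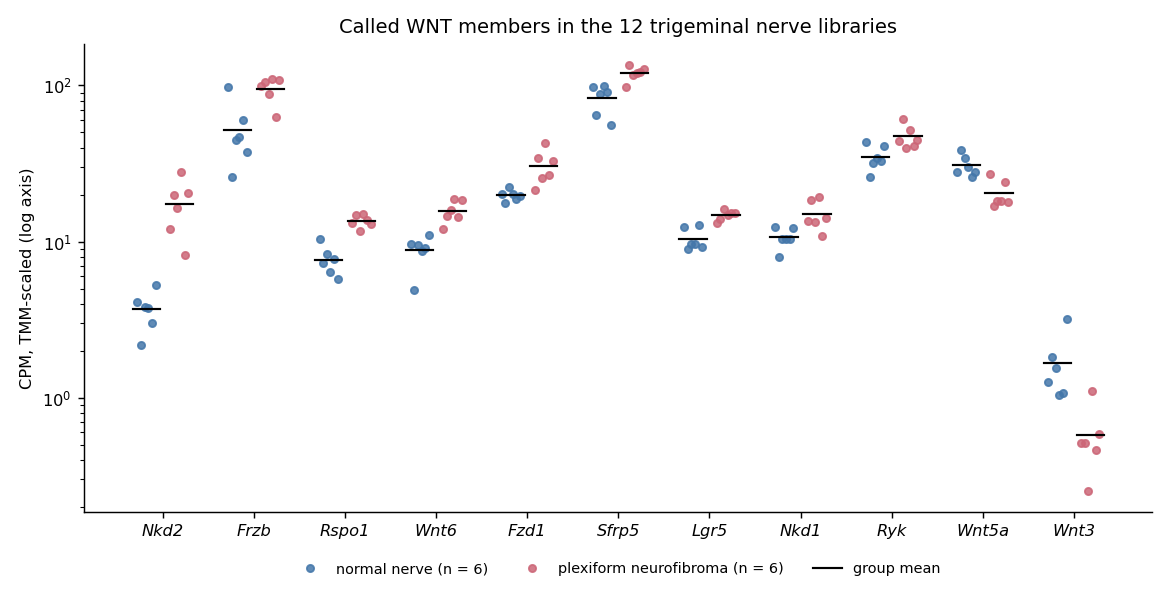
Level of each of the 11 called WNT genes in every library, as TMM-scaled CPM on a log axis, with 1 point per library (6 normal nerve, 6 plexiform neurofibroma) and a bar at the group mean. Nkd2, Rspo1, Wnt6 and Lgr5 have every tumour library above every normal one, and the groups overlap for the other 7.

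For 4 of the 51 genes (7.84%) the groups did not overlap, against 7.39% of all genes tested, so this share too is near the background. The 4 were Nkd2, Rspo1, Wnt6 and Lgr5, all higher in the tumours. Nkd2 and Rspo1 were called under each of the 24 other settings tried, which included leaving out each library in turn. Of the 11 called genes, 8 were called whichever single library was left out, and the other 3, Frzb, Nkd1 and Ryk, were not. With normal nerve replicate 6 left out, 12 WNT genes were higher and 6 lower, against 14.6% and 14.2% of all genes then tested. DESeq2 called 11 higher and 5 lower (12.9% and 11.8% of all genes), and limma-voom called 12 and 6 (16.7% and 15.7%). Without the 3 libraries high in muscle or glial markers, 10 were higher and 5 lower (12.4% and 10.9%).

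Of the 19 ligand genes, 11 passed the filter on low counts and were tested, and 10 of these met the expression rule. Wnt6 was called higher, and Wnt3 and Wnt5a were called lower (27.3% called, against 18.7% of all genes tested). With 11 genes nothing is read from that share. Some low ligands were above 1 CPM mainly in normal nerve, Wnt3 in 6 normal and 1 tumour library and Wnt11 in 5 and 2. Wnt7b did not meet the expression rule, with 1 library above 1 CPM in each group. No direction is therefore read from the tested ligands as a list.

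Wnt6 encodes a ligand known from epithelial and mesenchymal development, at chromosome 1, 74771892 to 74785322 (GRCm38). It measured 4.88, 9.31 and 11.1 CPM (lowest, median and highest) in normal nerve and 12.0, 15.2 and 18.6 CPM in the tumours. Every tumour library lay above every normal library, and normal nerve replicate 2 was the lowest of the 12. edgeR put the change at 0.82 on the log2 scale (SE 0.17, edgeR adjusted p = 0.00799). The antisense gene Gm29539 overlaps Wnt6, and whether the counting used strand is not given in the sources used here.

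Wnt3 (chromosome 11, 103774150 to 103817957), a ligand of the β-catenin branch, was near the detection limit. Its CPM was 1.04, 1.41 and 3.19 in normal nerve and 0.254, 0.514 and 1.11 in the tumours, from 5 to 48 counts per library. Normal nerve replicate 6 was the highest, plexiform neurofibroma replicate 4 reached into the normal range, and the other 5 tumours lay below all normal libraries. This gave a log2 fold change of -1.53 (SE 0.36, edgeR adjusted p = 0.0136). Without normal nerve replicate 6 it was -1.24 (edgeR adjusted p = 0.0124). It met the expression rule through all 6 normal libraries and 1 tumour library.

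Wnt5a (chromosome 14, 28504750 to 28527448) is the best known ligand of the signals that do not use β-catenin. Its CPM was 25.7, 29.1 and 38.7 in normal nerve and 16.8, 18.2 and 27.2 in the tumours. Plexiform neurofibroma replicate 1 fell within the normal range and the other 5 tumours were below it. The change came to -0.60 on the log2 scale (SE 0.14, edgeR adjusted p = 0.0115). The antisense gene Gm2670 overlaps Wnt5a.

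The other ligands did not pass the test. Wnt2b, a ligand of the β-catenin branch, had the nearest value, with 7.502, 13.5 and 15.98 CPM in normal nerve and 5.76, 8.90 and 11.4 CPM in the tumours (log2 fold change -0.58, edgeR adjusted p = 0.0543). It passed without normal nerve replicate 6 (-0.69, edgeR adjusted p = 0.00666), which was the lowest normal library, and without plexiform neurofibroma replicate 5. DESeq2 (adjusted p = 0.0251), limma-voom (adjusted p = 0.00604) and the fit without the 3 libraries (edgeR adjusted p = 0.0148) also called Wnt2b lower. With the sensory neuron or fibroblast score as a covariate Wnt2b was not called (edgeR adjusted p = 0.162 and 0.402). Wnt9a, at 6.71 to 8.58 CPM in normal nerve and 4.59 to 8.44 CPM in the tumours, had 5 tumours below all normal libraries but a log2 fold change of -0.35 (edgeR adjusted p = 0.106). It passed without plexiform neurofibroma replicate 5 (-0.48, edgeR adjusted p = 0.0234).

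Wnt4 was at 20.3 CPM in normal nerve replicate 6 and at 0.942 to 4.26 CPM in the other 11 libraries. Wnt7b was at 14.1 CPM in the same library and at 0.0582 to 1.54 CPM elsewhere, and Wnt7a and Wnt5b were highest there as well. Markers of central nervous system glia were high in that library, and their part in these values was not tested. Without it the log2 fold change of Wnt4 went from -1.46 to -0.44, and that of Wnt7b from -1.87 to 0.69. Neither was called in either fit. Wnt11 and Wnt16, at 0.466 to 3.51 CPM, had log2 fold changes of -0.74 and -0.38 (edgeR adjusted p = 0.132 and 0.341).

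Compared per kb of the longest annotated transcript, the ligand RNA of normal nerve came mainly from Wnt5a, Wnt6, Wnt2b and Wnt9a, at 4.40, 4.27, 3.91 and 2.30 CPM per kb (means, n = 6). The first 3 of these differed by less than 1 SD of Wnt6 (1.01 CPM per kb). In the tumours Wnt6 stood first at 7.55 CPM per kb ± 1.23 (SD, n = 6), ahead of Wnt5a at 2.91 ± 0.596. The share of Wnt6 in the summed ligand level was 12.8% to 25.7% in normal nerve and 30.9% to 49.4% in the tumours. The sum over all 19 ligands was 20.8 ± 4.44 CPM per kb in normal nerve and 18.2 ± 1.04 in the tumours (SD, n = 6 each), with overlap. Normal nerve replicate 6 gave the highest sum, 29.4, and the other 5 normal libraries lay between 17.1 and 20.9.

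Some Wnt genes sit beside each other in the genome. Wnt10a starts 6.19 kb after Wnt6 on the same strand, and its level stayed between 0.0507 and 0.465 CPM in all 12 libraries. Wnt9b lies 24.3 kb from Wnt3 on the opposite strand and reached at most 0.116 CPM. The neighbour of Wnt9a, Wnt3a, reached at most 0.388 CPM. Neither neighbour of the called ligands passed the expression rule.

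The promoters of Wnt6 and Wnt3 are shown because these ligands had the largest fold changes in either direction among the called ligands. Each is the 250 bases before the transcription start in RefSeq (GRCm38.p6), with CG dinucleotides, the sites of DNA methylation in mammals, in capitals. Both lie on the plus strand, Wnt6 at chr1:74771642-74771891 and Wnt3 at chr11:103773925-103774174.
Wnt6: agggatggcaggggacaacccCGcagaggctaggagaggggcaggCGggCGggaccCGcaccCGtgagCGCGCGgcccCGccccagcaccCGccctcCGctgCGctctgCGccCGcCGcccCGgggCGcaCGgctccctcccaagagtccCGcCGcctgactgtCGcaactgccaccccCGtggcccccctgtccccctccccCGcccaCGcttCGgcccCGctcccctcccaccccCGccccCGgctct
Wnt3: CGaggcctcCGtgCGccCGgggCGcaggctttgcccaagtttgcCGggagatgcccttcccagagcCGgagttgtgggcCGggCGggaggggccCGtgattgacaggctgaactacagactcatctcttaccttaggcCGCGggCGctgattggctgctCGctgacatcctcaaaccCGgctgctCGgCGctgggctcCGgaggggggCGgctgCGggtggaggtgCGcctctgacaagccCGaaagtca
The Wnt6 promoter holds 28 CG and the Wnt3 promoter 22, against a median of 18.5 over the 52 promoters of WNT genes in the table and 6 over all promoters. Both ligands, whose levels moved in opposite directions, have CG-rich starts.

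A core of the TCF and LEF binding site, CTTTGAT or on the other strand ATCAAAG, was looked for in the 300 bases from 250 before to 50 after each start. Of the 63 genes 42 had a promoter in the table, and the core was found in 2 of them (4.76%), against 4.29% of all genes in the table. They were Wnt5b and Wnt11, neither of which was called. None of the 9 called genes with a promoter held these letters in the window. The 30 bases around each match are shown with the core in capitals, Wnt5b at chr6:119449439-119449468 (minus strand, first base of the core 71 before the start) and Wnt11 at chr7:98835050-98835079 (plus strand, 51 before the start). The RefSeq start of Wnt5b lies inside the gene as GENCODE annotates it, which begins further upstream. A match is a description of the sequence only.
Wnt5b: agtaagtctctCTTTGATctgctccctgtc
Wnt11: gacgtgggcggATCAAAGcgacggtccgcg

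**Figure D2:**
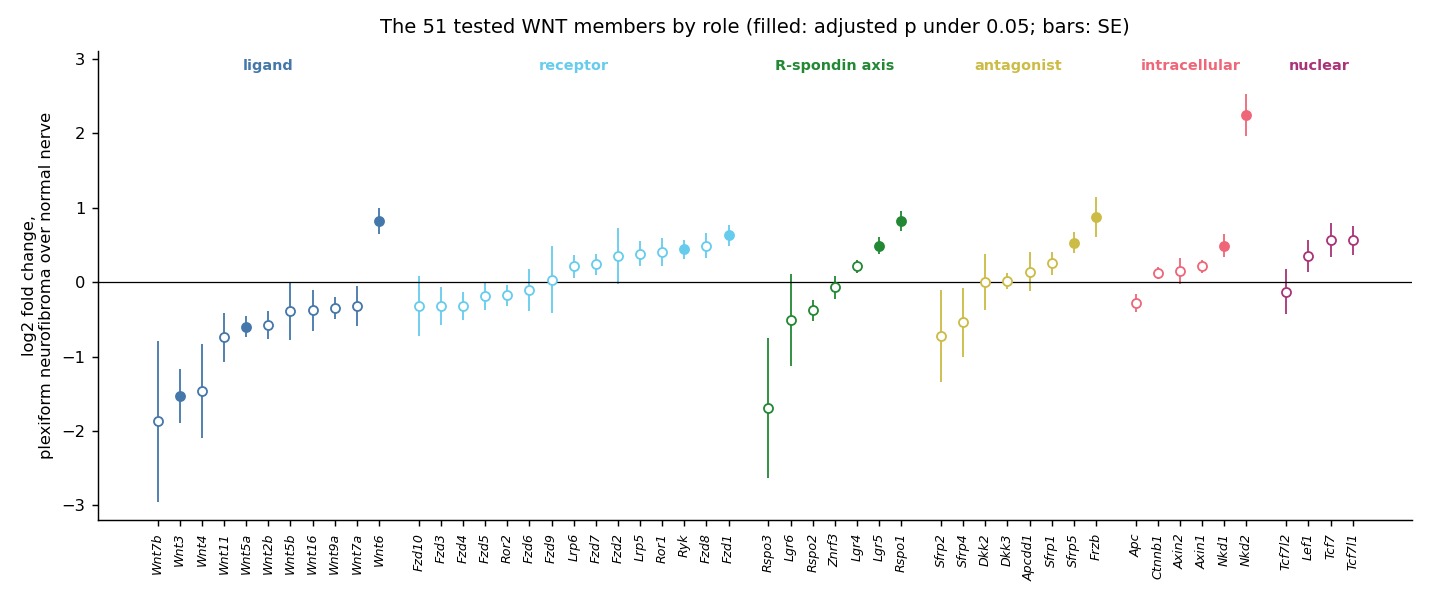
Log2 fold change, plexiform neurofibroma over normal nerve, of the 51 tested WNT genes grouped by role, with bars of 1 SE and filled points at an edgeR adjusted p under 0.05. Wnt6 is the one called ligand above 0, and Nkd2 at 2.24 is the highest point of all.

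Among the 15 tested receptors 2 were called higher and none lower, and the median log2 fold change was 0.21. The 13.3% called is below the 18.7% of all genes tested, and 6 of the 15 had a log2 fold change below 0. Fzd1 rose 1.55-fold, and Ryk 1.35-fold. Frizzled proteins are the membrane-spanning receptors that bind WNT ligands directly, and RYK is a single-pass WNT receptor with an inactive kinase domain.

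Fzd1 (chromosome 5, 4753839 to 4758035) measured 17.6, 19.9 and 22.3 CPM in normal nerve and 21.4, 29.8 and 42.9 CPM in the tumours. The normal libraries were close together, 5 tumours lay above all of them, and plexiform neurofibroma replicate 1 fell within their range. edgeR put the change at 0.63 on the log2 scale (SE 0.14, edgeR adjusted p = 0.0108). Ryk (chromosome 9, 102834917 to 102908305) measured 26.0, 33.5 and 43.5 CPM in normal nerve and 39.9, 44.4 and 61.4 CPM in the tumours. Here 4 tumours lay above all normal libraries. The log2 fold change of 0.44 (SE 0.13, edgeR adjusted p = 0.0394) missed the threshold in 7 of the 12 fits that left out 1 library, with an edgeR adjusted p of up to 0.0877.

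The other 9 Frizzled genes were not called. Fzd8 had 5 tumours above all normal libraries and a log2 fold change of 0.49 (edgeR adjusted p = 0.0635), which passed at 0.54 without normal nerve replicate 6 (edgeR adjusted p = 0.036). Fzd7 and Fzd2 had log2 fold changes of 0.24 and 0.35, Fzd9 was at 0.032, and Fzd3, Fzd4, Fzd5, Fzd6 and Fzd10 lay between -0.32 and -0.11 (edgeR adjusted p = 0.249 to 0.968 for these 8). Fzd2 reached 18.5 CPM in normal nerve replicate 6, against 2.54 to 13.9 CPM in the other libraries. Per kb, Fzd1 led the family with 4.71 CPM per kb in normal nerve and 7.30 in the tumours, followed by Fzd7 at 3.83 and 4.51. Summed over the family, the level was 13.7 to 23.4 CPM per kb in normal nerve and 16.9 to 25.9 in the tumours, with wide overlap.

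The co-receptors of the β-catenin branch, Lrp5 and Lrp6, had log2 fold changes of 0.38 and 0.21 (edgeR adjusted p = 0.135 and 0.355). Lrp6 was the more abundant, at 8.46 CPM per kb in normal nerve against 1.19 for Lrp5. Ror1 and Ror2, receptors for WNT5A, had log2 fold changes of 0.40 and -0.18 (edgeR adjusted p = 0.146 and 0.396).

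The R-spondin axis gave both a rise of a ligand and a rise of a receptor. Rspo1 rose 1.77-fold and Lgr5 1.41-fold, both without overlap of the groups. R-spondins are secreted proteins that bind LGR4, LGR5 or LGR6 and draw the ubiquitin ligases RNF43 and ZNRF3 away from Frizzled. Of 8 genes 7 were tested, with 2 called higher and none lower (28.6% called, against 18.7% of all genes tested). With 7 genes nothing is read from that share.

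Rspo1 (chromosome 4, 124986430 to 125009099) measured 5.78, 7.55 and 10.4 CPM in normal nerve and 11.6, 13.4 and 15.1 CPM in the tumours. The lowest tumour lay above the highest normal library, replicate 1. The change of 0.82 on the log2 scale (SE 0.13, edgeR adjusted p = 0.00298) ranged from 0.75 to 0.93 when single libraries were left out. The antisense gene Gm12930 overlaps Rspo1.

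Rspo2 was the most abundant R-spondin per kb in normal nerve, at 9.43 CPM per kb against 4.18 for Rspo1. It measured 22.9, 31.9 and 41.6 CPM in normal nerve and 19.0, 23.3 and 30.0 CPM in the tumours, a log2 fold change of -0.38 (edgeR adjusted p = 0.0664). Rspo2 was called lower without normal nerve replicate 6 (-0.46, edgeR adjusted p = 0.0143) and without plexiform neurofibroma replicate 5. DESeq2 (adjusted p = 0.0432), limma-voom (adjusted p = 0.0164) and the fit without the 3 libraries (edgeR adjusted p = 0.0258) also called it lower. In the tumours both stood level, Rspo1 at 7.40 CPM per kb ± 0.707 and Rspo2 at 7.25 ± 1.16 (SD, n = 6). The share of Rspo1 in the R-spondin sum was 22.6% to 36.1% in normal nerve and 43.8% to 57.7% in the tumours, while the sum itself was 14.7 ± 1.48 and 15 ± 1.33 CPM per kb (SD, n = 6 each). Rspo3 was at 12.0 CPM in normal nerve replicate 6 and at 0.203 to 5.18 CPM elsewhere.

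Lgr5 (chromosome 10, 115450311 to 115587780), an R-spondin receptor and itself a known β-catenin target, measured 8.95, 9.67 and 12.7 CPM in normal nerve and 13.1, 14.99 and 16.1 CPM in the tumours. All tumours lay above all normal libraries, by a narrow margin. This gave a log2 fold change of 0.49 (SE 0.11, edgeR adjusted p = 0.00909). The gene A930009A15Rik lies on the other strand of the same region. Lgr4, which made up 84.2% of LGR receptor RNA per kb in normal nerve and 82.3% in the tumours, had a log2 fold change of 0.21 (edgeR adjusted p = 0.0965). The log2 ratio of Lgr5 to Lgr4 was higher in the tumours by 0.28 (two-sided exact permutation test, p = 0.00866, adjusted p = 0.039 over 9 paralog pairs), and 4 of 6 tumours lay above all normal libraries. The difference missed the threshold in 9 of the 12 comparisons that left out 1 library (exact permutation, adjusted p = 0.0519 to 0.0779). These were the ones without normal nerve replicates 2 to 6 and without plexiform neurofibroma replicates 3 to 6. Znrf3 had a log2 fold change of -0.071 (edgeR adjusted p = 0.765). Rnf43 was too low to be tested, and Lgr6 was at 5.84 CPM in normal nerve replicate 6 and at 0.407 to 1.53 CPM elsewhere.

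**Figure D3:**
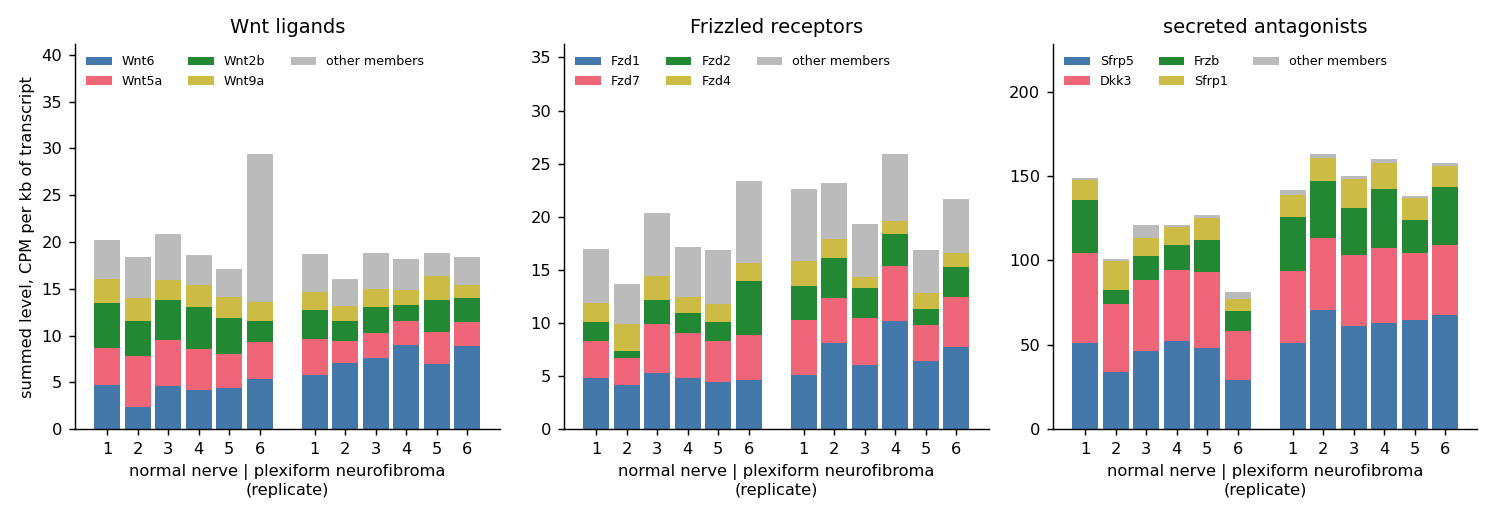
Summed level of the Wnt ligands, the Frizzled receptors and the secreted antagonists in each library, in TMM-scaled CPM per kb of the longest transcript, with the 4 leading genes of each family in colour and the rest in grey. Wnt6 takes a larger part of the ligand bar in the tumours, and normal nerve replicate 6 has the highest ligand bar (29.4) and the lowest antagonist bar (81.5).

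Among the 8 tested antagonists Frzb and Sfrp5 were called higher and none lower, and 3 had a log2 fold change below 0. The 25% called stands against 18.7% of all genes tested, and with 8 genes nothing is read from that share. Frzb and Sfrp5 both belong to the secreted Frizzled-related proteins, which carry a Frizzled-like domain and bind WNT ligands. Sfrp5 (chromosome 19, 42197971 to 42202252) measured 55.8, 89.4 and 99.7 CPM in normal nerve and 97.2, 121 and 135 CPM in the tumours. Only plexiform neurofibroma replicate 1 reached into the normal range, and normal nerve replicates 2 and 6 were the lowest. The change came to 0.53 on the log2 scale (SE 0.14, edgeR adjusted p = 0.0198). After a correction for transcript length it was 0.45 (edgeR adjusted p = 0.0562).

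Frzb, also called Sfrp3 (chromosome 2, 80411970 to 80447625), measured 26.1, 45.8 and 97.6 CPM in normal nerve and 62.6, 103 and 110 CPM in the tumours. Normal nerve replicate 1 was as high as the tumours, and plexiform neurofibroma replicate 5 was close to the upper normal libraries. edgeR put the change at 0.87 on the log2 scale (SE 0.27, edgeR adjusted p = 0.0392). It missed the threshold in 10 of the 12 fits that left out 1 library, with an edgeR adjusted p of up to 0.0842, and was 1.15 without normal nerve replicate 1 (edgeR adjusted p = 0.00453).

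Sfrp1 had a log2 fold change of 0.25 (edgeR adjusted p = 0.27) and overlapping groups. Sfrp4 and Sfrp2 were each highest in normal nerve replicate 3, at 15.9 and 5.35 CPM, and had log2 fold changes of -0.54 and -0.72 (edgeR adjusted p = 0.425 and 0.431). With single libraries left out these ran from -0.85 to 0.11 for Sfrp4 and from -1.27 to 0.13 for Sfrp2. Skeletal muscle markers were also high in normal nerve replicate 3, and their part in these values was not tested. Dkk3, a divergent member of the Dickkopf family, was at 96.5 to 179 CPM in normal nerve and 133 to 150 CPM in the tumours, with a log2 fold change of 0.012 (edgeR adjusted p = 0.949). Dkk2, which binds LRP6, had median levels of 1.04 CPM in normal nerve against 1.43 in tumour (log2 fold change -0.0014, edgeR adjusted p = 0.998), and Apcdd1, a membrane antagonist, had a log2 fold change of 0.14 (edgeR adjusted p = 0.725). Dkk1 was at 0 counts in all 12 libraries, which allows up to 3 counts per library, and Wif1 and Notum stayed under 1 CPM.

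Per kb, Sfrp5 and Dkk3 led the antagonists in normal nerve at 43.6 ± 9.54 and 41.9 ± 8.0 CPM per kb (SD, n = 6), which do not differ beyond their spread. In the tumours Sfrp5 was at 63.1 ± 6.73, Dkk3 at 42.2 ± 1.62 and Frzb at 30.3 ± 5.72 CPM per kb. The summed SFRP family ran from 51 to 95.4 CPM per kb in normal nerve and from 98.1 to 120 in the tumours. The 10 secreted antagonists together exceeded the summed Wnt ligands 2.77 to 7.41 times in normal nerve and 7.38 to 10.2 times in the tumours. The lowest of these ratios was that of normal nerve replicate 6, and the next lowest was 5.47 in replicate 2.

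Of the 6 intracellular genes Nkd2 and Nkd1 were called higher and none lower. The 33.3% called stands against 18.7% of all genes tested, and with 6 genes nothing is read from that share. NKD1 and NKD2 are the vertebrate Naked cuticle proteins, which bind Dishevelled and dampen the signal, and both are known as genes that the pathway itself can switch on. Nkd2 (chromosome 13, 73818534 to 73847631) measured 4.11, 2.19, 3.80, 3.75, 2.99 and 5.245 CPM in normal nerve replicates 1 to 6. In plexiform neurofibroma replicates 1 to 6 it measured 12.0, 19.99, 16.4, 27.7, 8.15 and 20.5 CPM. Every tumour lay above every normal library, with plexiform neurofibroma replicate 5 the lowest tumour and replicate 4 the highest. The rise of 2.24 on the log2 scale (SE 0.28, edgeR adjusted p = 0.00115) placed Nkd2 at rank 39 by p-value among the 17236 genes tested.

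Nkd1 (chromosome 8, 88521354 to 88594884) measured 7.93, 10.4 and 12.4 CPM in normal nerve and 10.9, 13.9 and 19.4 CPM in the tumours. Plexiform neurofibroma replicate 5 lay inside the normal range, as the lowest tumour, and the other 5 lay above it. This gave a log2 fold change of 0.49 (SE 0.15, edgeR adjusted p = 0.0383). It missed the threshold in 7 of the 12 fits that left out 1 library, with an edgeR adjusted p of up to 0.094.

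The log2 ratio of Nkd2 to Nkd1 was -1.54 ± 0.23 in normal nerve and 0.14 ± 0.38 in the tumours (SD, n = 6 each). The difference of 1.68 had a two-sided exact permutation p = 0.00216, the smallest that 6 against 6 allows, and an adjusted p of 0.0195 over the 9 pairs. All 6 tumours lay above all normal libraries.

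The promoters of this pair are shown because both genes rose, by unequal amounts. Each is the 250 bases before the RefSeq start (GRCm38.p6) with CG dinucleotides in capitals, Nkd2 at chr13:73847632-73847881 on the minus strand and Nkd1 at chr8:88527383-88527632 on the plus strand. The RefSeq start of Nkd1 lies inside the gene as GENCODE annotates it, which begins further upstream.
Nkd2: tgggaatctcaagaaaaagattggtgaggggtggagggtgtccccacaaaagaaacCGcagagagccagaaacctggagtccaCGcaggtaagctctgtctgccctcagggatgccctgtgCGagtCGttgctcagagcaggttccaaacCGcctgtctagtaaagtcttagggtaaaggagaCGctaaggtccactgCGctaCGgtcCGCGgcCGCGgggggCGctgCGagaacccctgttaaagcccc
Nkd1: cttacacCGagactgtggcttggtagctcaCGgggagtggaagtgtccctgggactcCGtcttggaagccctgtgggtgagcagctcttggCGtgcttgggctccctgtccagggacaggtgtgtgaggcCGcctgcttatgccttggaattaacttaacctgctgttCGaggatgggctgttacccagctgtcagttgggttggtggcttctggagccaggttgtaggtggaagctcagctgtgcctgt
Nkd2 holds 14 CG and Nkd1 holds 6 in these 250 bases, and both have a GC content of 58.4%. Neither holds the TCF and LEF core given above.

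The rest of the intracellular group was not called. Ctnnb1, which encodes β-catenin and had the highest level per kb of all 63 genes (110.1 CPM per kb in normal nerve, 119.8 in the tumours), had a log2 fold change of 0.12 (edgeR adjusted p = 0.29). Apc and Axin1, scaffold proteins of the destruction complex, had log2 fold changes of -0.28 and 0.21 (edgeR adjusted p = 0.112 and 0.105).

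Axin2, a negative regulator widely used as a readout of β-catenin activity, measured 7.20, 8.62 and 15.4 CPM in normal nerve and 9.14, 10.4 and 12.4 CPM in the tumours. The 15.4 CPM was that of normal nerve replicate 6, and the other 5 normal libraries lay between 7.20 and 9.95 CPM. The change came to 0.15 on the log2 scale (SE 0.17, edgeR adjusted p = 0.573). Without that library it was 0.34 (edgeR adjusted p = 0.0447), and Axin2 passed in no other of the 24 settings. It was 0.34 with limma-voom (limma-voom adjusted p = 0.0521) and 0.28 without the 3 libraries high in muscle or glial markers (edgeR adjusted p = 0.137). With the sensory neuron and fibroblast scores as covariates it was -0.028 and -0.09 (edgeR adjusted p = 0.897 and 0.835).

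The 4 nuclear factors bind the TCF and LEF site and recruit β-catenin, and none was called. Tcf7l1, best known as a repressor, measured 7.32, 7.91 and 10.6 CPM in normal nerve and 8.02, 11.7 and 19.3 CPM in the tumours (log2 fold change 0.56, SE 0.19, edgeR adjusted p = 0.0504). It passed in 4 of the 12 fits that left out 1 library, those without normal nerve replicates 1 and 6 and without plexiform neurofibroma replicates 5 and 6 (edgeR adjusted p = 0.0302 to 0.0491). Tcf7 and Lef1 had log2 fold changes of 0.56 and 0.35 (edgeR adjusted p = 0.108 and 0.277). Tcf7l2 was at 31.9 CPM in normal nerve replicate 6 and at 9.21 to 17.5 CPM in all others, and its log2 fold change of -0.13 became 0.28 without that library (edgeR adjusted p = 0.788 and 0.2). The ratio of Tcf7l1 to Tcf7l2 was higher in the tumours by 0.50 on the log2 scale (exact permutation p = 0.0476, adjusted p = 0.107).

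**Figure D4:**
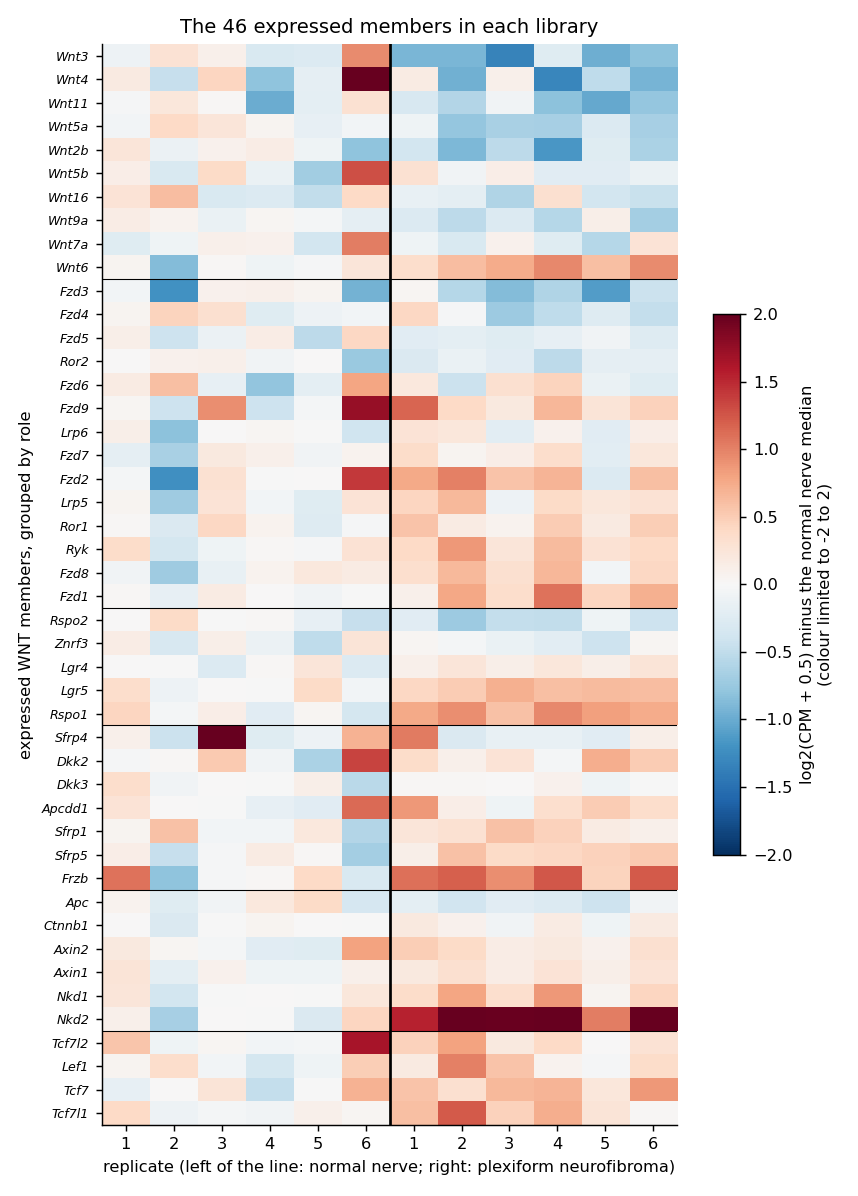
Each of the 46 expressed WNT genes (rows, by role) in each of the 12 libraries (columns), as log2(CPM + 0.5) minus the normal nerve median of that gene, with colour limited to -2 to 2. Nkd2 is the row with the largest shift in the tumours, and normal nerve replicate 6 carries the highest values of Wnt4, Wnt5b, Wnt7a, Fzd2, Tcf7l2 and Axin2.

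Of the 63 genes, 10 are commonly named as feedback targets of β-catenin. Of the 8 that were tested, Nkd2, Nkd1 and Lgr5 rose, and the median log2 fold change of the 8 was 0.42, against -0.021 for all genes tested. The 3 are 37.5% of the 8, where 10.0% of all genes tested were called higher, and with so few genes nothing is read from that share. The other 5 were Axin2, Lef1, Tcf7, Znrf3 and Apcdd1, at -0.071 to 0.56. Without normal nerve replicate 6, Axin2 and Tcf7 also passed and the median was 0.46, in a fit that called 14.6% of all genes higher. Axin2 passed in no other setting tried. With the summary score of fibroblast markers as a covariate, Nkd2 was the only 1 of the 8 called and the median was 0.19.

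With that covariate 2 of the 11 called genes were still called, and its background changed too. With it, 1.11% of all genes were higher and 1.27% lower, and among the WNT genes Nkd2 (1.64, edgeR adjusted p = 0.0267) and Rspo1 (0.80, edgeR adjusted p = 0.0457) were higher and Rspo3 (-3.36, edgeR adjusted p = 0.0391) was lower. The log2 fold changes of Frzb, Nkd1 and Ryk went from 0.87, 0.49 and 0.44 to 0.45, 0.15 and 0.14, while that of Rspo1 went from 0.82 to 0.80 and that of Lgr5 from 0.49 to 0.50. The fibroblast score and the tumour label largely run together across these 12 libraries. The score itself, a mean of log2 CPM, was 3.11 to 5.98 in normal nerve and 5.29 to 7.02 in the tumours, with overlap. The part of fibroblast content in the results was not tested. With the sensory neuron score as a covariate, 8 WNT genes were higher and 3 lower, against 7.41% and 8.64% of all genes, and Frzb, Nkd1 and Ryk were not among them.

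**Figure D5:**
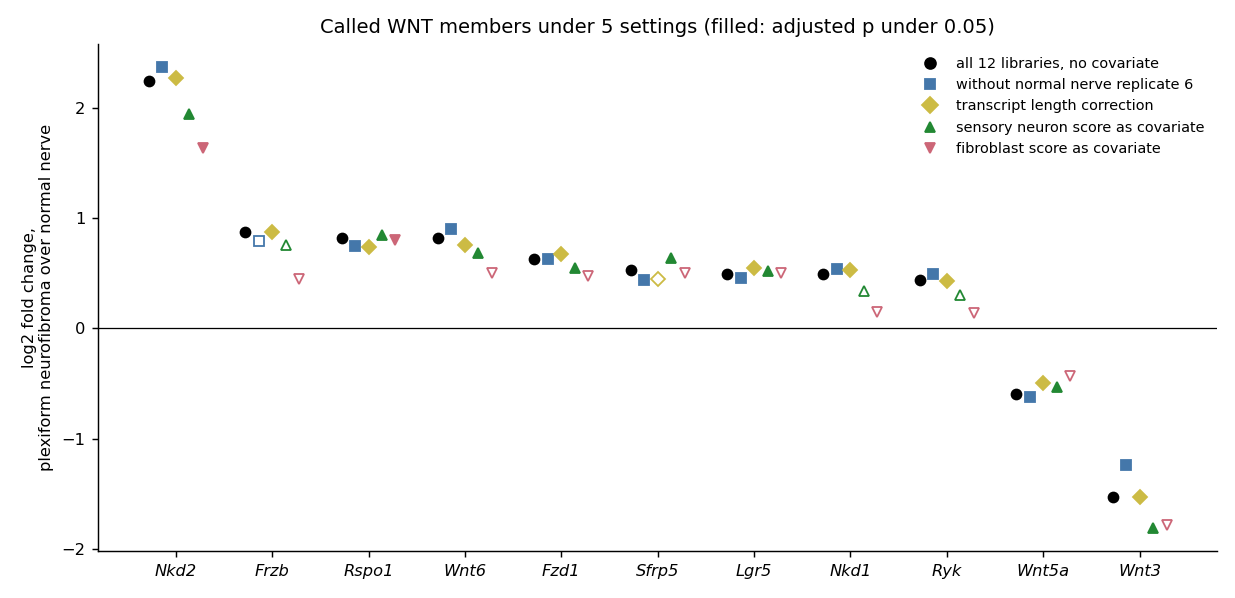
Log2 fold change of the 11 called WNT genes under 5 settings (black: all 12 libraries without a covariate), filled where the edgeR adjusted p was under 0.05. Every gene keeps its side of 0, and with the fibroblast score as a covariate Nkd2 at 1.64 and Rspo1 at 0.80 are the filled points.

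Genes of the pathway outside the 63 were examined as a list of 58 symbols, of which 53 were tested, with 3 higher and 9 lower. The 22.6% called is near the 18.7% of all genes tested (10.0% higher and 8.63% lower), so the count is no result about the pathway, and the called genes are given as single genes. The median log2 fold change was -0.061. Gpc3 and Gpc4, glypicans that hold WNT and other ligands at the cell surface, rose 3.50-fold and 2.55-fold (edgeR adjusted p = 0.00772 and 0.0024), and Sostdc1, a secreted antagonist of WNT and BMP ligands, rose 2.26-fold (edgeR adjusted p = 0.00686). All 3 had every tumour above every normal library, and none was called with the fibroblast score as a covariate. Over the list, 6 of the 53 tested genes (11.3%) had groups that did not overlap, against 7.39% of all genes tested. Nothing is read from that share.

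The 9 that fell lay between 0.656 and 0.890 of the normal level. Dvl3 and Dvl1, which encode Dishevelled proteins, fell to 0.713 and 0.834 of the normal level (edgeR adjusted p = 0.00298 and 0.0187), without overlap of the groups. Dvl2, of the same family, went the other way at 1.15 of the normal level and was not called (edgeR adjusted p = 0.141). Gsk3a, Csnk1g1 and Tnks, which encode kinases and a poly-ADP-ribosylating enzyme that act on the destruction complex or on LRP6, fell to 0.823, 0.805 and 0.681 (edgeR adjusted p = 0.0148, 0.0208 and 0.0261), and Daam1, a formin downstream of Dishevelled, fell to 0.822 (edgeR adjusted p = 0.0303). The other 3 were Celsr3, Gsk3b and Btrc, at 0.656, 0.772 and 0.890, and of these Btrc had groups that did not overlap. After a correction for transcript length 5 genes of this list were called higher and 2 lower (8.60% and 6.53% of all genes). Leaving out normal nerve replicate 6 gave 15 lower (14.2% of all genes).

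Further genes named as β-catenin targets in other tissues were taken as a list of 26, of which 18 were tested, with 5 higher and 1 lower (33.3% called, against 18.7% of all genes tested) and a median of 0.08. With 18 genes nothing is read from that share. Ccnd1, the D-type cyclin that drives entry into the cell cycle, rose 4.65-fold and Ccnd2 2.65-fold (edgeR adjusted p = 0.00191 and 0.00686). Wisp1, a matricellular protein, Fst, which encodes the activin antagonist follistatin, and Snai2, a mesenchymal transcription factor, rose 1.88-fold, 2.50-fold and 2.56-fold (edgeR adjusted p = 0.0168, 0.0186 and 0.0441). Snai2 was low, at 0.139 to 2.09 CPM, and missed the threshold in 8 of the fits that left out 1 library. Tbx3, a T-box factor, fell to 0.659 of the normal level (edgeR adjusted p = 0.0405). Myc, among the first described β-catenin targets, had a log2 fold change of 0.12 (edgeR adjusted p = 0.678).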

How the data were processed

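Polyadenylated RNA of 6 normal nerve and 6 plexiform neurofibroma samples was sequenced. The authors deposited 1 table of expected counts, estimated counts per gene symbol without normalization, and the tools named in the submitters' processing notes are Salmon 0.60, STAR 2.4.2a, DESeq2 and FastQC, with mm10 and no roles. The sources used here give neither annotation nor strand setting. Per library, 84.1% to 86.5% of values were whole within 0.001. Estimated counts share reads between similar genes, so values of paralogs are less certain.

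The expected counts were rounded and tested in edgeR 4.0.16 by its quasi-likelihood test (R 4.3.3, TMM factors, filterByExpr, robust fit, no covariate) over 17236 genes, with Benjamini-Hochberg adjustment and calls at an adjusted p under 0.05. CPM used TMM-scaled library sizes. The script was tested on simulated data. Paralog log2 ratios (prior count 2) were tested by exact permutation over 924 splits, two-sided. Positions and transcript lengths came from GENCODE vM21 (GRCm38, the assembly of mm10), to which 45187 symbols matched directly and 619 by an older symbol, and promoters came from RefSeq. Alternatives were other scaling factors and filters, DESeq2 1.42.0, limma-voom (limma 3.58.1), marker scores as covariates, a transcript length correction (lowess span 0.3), each library left out, and a fit without 3 libraries high in muscle or CNS markers, which was chosen after seeing the data.

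The members, their roles and all gene lists were chosen with earlier results of these data known. The rule named every expressed member by role, gave called members their values by library (here as lowest, median and highest, or plotted), and named up to 6 called genes per direction of the other lists. Genes outside it are named only to complete a count or describe a low or outlying library, and were chosen after their values were seen. The labels do not state that samples came from separate animals, so p-values measure the spread between these samples.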

Additional observations from a re-analysis of the deposited data

Results flagged for a closer look

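Within each group of 6 libraries, values were checked for a highest or lowest library far from the rest, by the gap to its nearest neighbour over the range. Of 162 groups examined, 23 values stood apart. For normally distributed values chance flags about 1 in 20 groups, a rate that was not checked for CPM. Normal nerve replicate 6 held 12 of the 23. There Wnt4 was at 20.31 CPM, Wnt7b at 14.14, Wnt7a at 6.971, Wnt3 at 3.187, Fzd2 at 18.52, Tcf7l2 at 31.87, Axin2 at 15.4, Apcdd1 at 11.42 and Lgr6 at 5.842 CPM, all high. Ror2 was low there at 5.776 CPM, the log2 ratio of Tcf7l1 to Tcf7l2 was low at -1.949, and the summed ligands were high at 29.42 CPM per kb.

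Normal nerve replicate 2, which had the lowest fibroblast marker sum (184 CPM), was low for Ctnnb1 at 334.1 CPM, for Gpc3 at 10.32 and for Ccnd1 at 8.85 CPM. Normal nerve replicate 3 was high for Sfrp2 and Sfrp4, at 5.354 and 15.89 CPM, and normal nerve replicate 1 was high for Tcf7l1, at 10.55 CPM. Among the tumours, replicate 1 was high for Rspo3 (3.33 CPM), Sfrp4 (7.685 CPM) and the log2 ratio of Axin2 to Axin1 (-0.6292). Replicate 2 was high for Sfrp2 (2.692 CPM) and low for the summed ligands (16.07 CPM per kb).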

How the results depend on the processing

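All 11 called genes kept their direction under each of the 24 other settings. With the fibroblast score as covariate 2 WNT genes were higher and 1 lower, where the fit without a covariate gave 9 and 2. The lower count was 5 with DESeq2, 6 with limma-voom and 5 without the 3 libraries high in muscle or CNS markers. With single libraries left out, it ran from 2 to 6 (6 without normal nerve replicate 6, 5 without plexiform neurofibroma replicate 5). The higher count then ran from 6 to 12. It was 6 without normal nerve replicates 2, 3 or 4 or plexiform neurofibroma replicates 2 or 4, and 12 without normal nerve replicate 6. Of the 40 genes not called, 15 were called in some setting and 21 changed sign in some setting.

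Other pathway genes called higher, 3 in the fit reported, were 9 with limma-voom, 0 with the fibroblast score, 5 with the length correction, 9 without the 3 libraries, and 3 to 10 with single libraries left out (10 without normal nerve replicate 6). Those called lower, 9 in the fit reported, were 3 with no filter, 14 with limma-voom, 4 with the neuron score, 1 with the fibroblast score, 2 with the length correction, and 3 to 15 with single libraries left out. Other targets called higher, 5 in the fit reported, were 3 with the neuron score, 1 with the fibroblast score and 3 without the 3 libraries. The 1 called lower, Tbx3, became 0 with no filter and with the muscle, fibroblast and perineurial scores, 2 with DESeq2, limma-voom, the neuron score and the 3 libraries removed, and 0 to 2 with single libraries left out. The share of all genes called also differed between settings, as given above, and was not computed for the fit with no filter or for the muscle and perineurial scores. These counts are therefore no result about the pathway, and the cause of their changes was not tested.

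The log2 ratio of Lgr5 to Lgr4 differed by 0.23 to 0.32 with single libraries left out and missed the threshold in 9 of 12, and that of Tcf7l1 to Tcf7l2 by 0.23 to 0.59, passing at 0.59 without plexiform neurofibroma replicate 6 (exact permutation, adjusted p = 0.0195). No paired analysis was possible because the labels give no replicate numbers shared between the groups. Depth limits the precision of low genes such as Wnt3, at 5 to 48 counts per library, and no limit of detection was computed.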
